A study of Mus musculus with 6 samples.

Results

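The CC chemokine ligands are small secreted proteins with adjacent cysteines near the N-terminus that guide leukocytes through G protein-coupled receptors of the CCR family. The 10 genes described here, Ccl2, Ccl3, Ccl4, Ccl5, Ccl6, Ccl7, Ccl9, Ccl17, Ccl22 and Ccl24, were taken by gene symbol from the 17567 genes with a row, and all 10 passed the filter on low counts. The cells were immature dendritic cells of the mouse, which take up antigen and have not yet matured into T cell stimulators. They were grown from the bone marrow of male C57BL/6 mice aged 6 weeks, in medium with 10% serum, 20 ng/mL GM-CSF and 10 ng/mL interleukin-4, collected on day 6 and enriched on beads for CD11c. The control group had no further treatment named, and the H2O2 group received hydrogen peroxide, an oxidant, at 100 µM over 24 h. Neither group carried a genetic change named in the labels.

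The labels gave 3 samples per group, but the values of H2O2 replicate 3 equalled those of H2O2 replicate 1 in all 17567 rows, so the 2 were counted as 1 library. This left 3 control and 2 H2O2 libraries, of between 16232604 and 16672491 counts. Replicates were numbered in the order of deposit. The 5 libraries fell into 2 sets that the treatment does not explain. Summed counts of the Y-linked genes Ddx3y, Eif2s3y, Kdm5d and Uty were 1756 in control replicate 1 and 1608 in H2O2 replicate 1 (set A), and at most 7 in control replicates 2 and 3 and H2O2 replicate 2 (set B), although all mice were labelled male. The labels do not say what the sets are, nor whether replicates came from separate mice or cultures, so p-values measure only the spread between these libraries. Itgax, which encodes the CD11c of the bead enrichment, stood between 1473 and 2177 CPM (counts scaled to a common library size, the usual CPM unit), Zbtb46 between 54.1 and 70.6 CPM and H2-Ab1 between 212.5 and 349.1 CPM. Zbtb46 and H2-Ab1 were lower in both H2O2 libraries than in any control. Of the other conventional dendritic cell markers listed, Irf4 stood between 524.4 and 838.3 CPM. Flt3 stood between 1.425 and 12.67 CPM and Dpp4 between 1.749 and 18.48 CPM, and Cd209a had at most 6 counts in a library.

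As background, CC chemokines differ in the receptors they engage and so in the cells they draw. Ccl2 and Ccl7 attract monocytes through CCR2. Ccl3 and Ccl5 act on CCR1 among other receptors, Ccl4 is a close relative of Ccl3, and Ccl6 and Ccl9 are rodent ligands of CCR1. Ccl17 and Ccl22 bring in T cells through CCR4 and are classic products of dendritic cells, and Ccl24 attracts eosinophils through CCR3. Many of these genes are induced by NF-kB, and Ccl17, Ccl22 and Ccl24 also by interleukin-4 through STAT6.

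With H2O2, only Ccl2 of the 10 ligands was called, 1.39-fold higher, and none was called lower. The difference between the 2 sets of libraries was far larger: 7 ligands were lower and 2 higher in set A, and Ccl4 differed 23.0-fold. The H2O2 comparison was therefore read inside the sets, in a fit with a term for the set (edgeR's quasi-likelihood test, Benjamini-Hochberg adjusted p of at most 0.05 over 12209 genes). In that fit 3.93% of all tested genes were called higher and 4.61% lower, so 1 of 10 higher and 0 of 10 lower, or 1 of 10 in either direction against 8.54% of genes, is close to the background. Without the set term, 0 of 12209 genes and 0 of the 10 ligands were called, with 6.99% of genes and 0 ligands at an unadjusted p of at most 0.05. In the fit with the term, 5 of 10 ligands had an unadjusted p of at most 0.05, against 27.8% of all genes, and DESeq2 called 2 ligands higher and 0 lower, against 3.52% and 4.7% of the 11262 genes it gave an adjusted p.

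**Figure D1:**
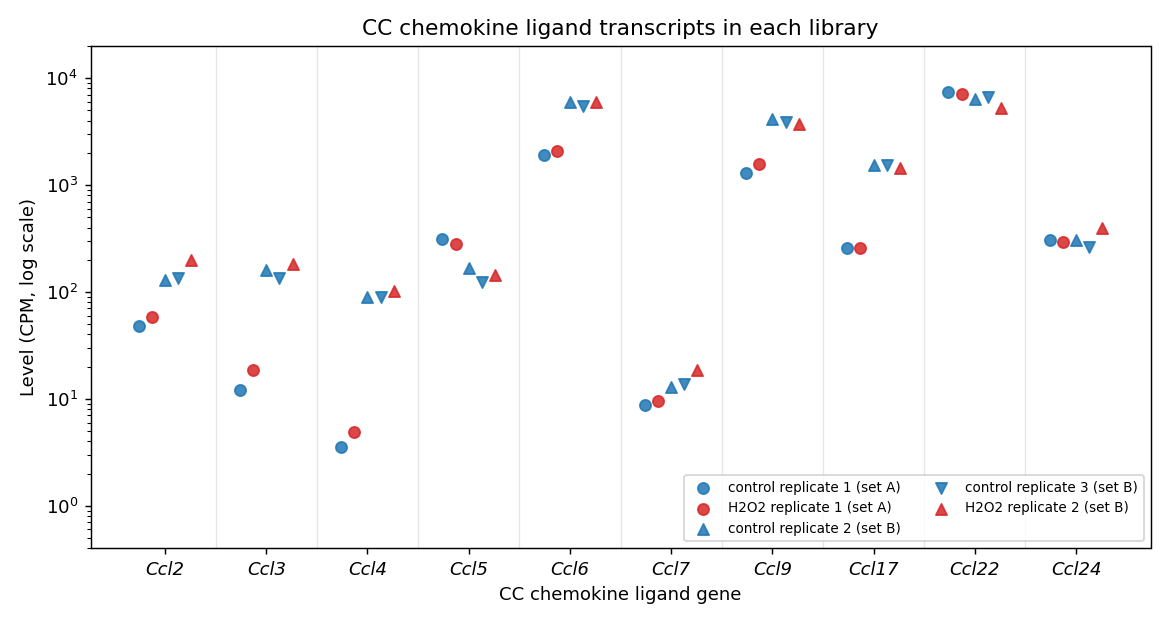
Level of each CC chemokine ligand transcript in each of the 5 distinct libraries, in CPM on a log axis; blue marks are control libraries, red marks H2O2 libraries, circles set A and triangles set B. Ccl4 lay at 3.55 and 4.91 CPM in set A and between 90.4 and 102.5 CPM in set B, while Ccl22 and Ccl24 lay within narrow ranges.

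Among the CCR2 ligands, Ccl2, the main monocyte attractant (chromosome 11, 82035577 to 82037452, GRCm38.p6), had 47.7 CPM in control replicate 1 of set A against 58.3 CPM in H2O2 replicate 1. The set B levels were 130.2 and 135.0 CPM for control replicates 2 and 3 and 199.8 CPM for H2O2 replicate 2. The H2O2 library was the higher in each set, but set A H2O2 lay below both set B controls, so the groups overlapped when the sets were ignored. The log2 fold change was 0.47 ± 0.087 (SE; adjusted p = 0.0273 by edgeR; n = 3 and 2). A joint fit with a treatment term for each set gave 0.29 ± 0.086 (set A) and 0.59 ± 0.065 (set B). Set A holds 1 library of each treatment and has no spread of its own. Its SE rests on the set B controls and on the spread of other genes. The same holds for the set A changes of other ligands below. The call was lost with no set term (log2 0.31 ± 0.66, adjusted p = 0.945) and with no filter on low counts (adjusted p = 0.0631), and with the replicate number as a block (adjusted p = 0.0595). Leaving out control replicate 2 (adjusted p = 0.0665), control replicate 3 (0.0952) or H2O2 replicate 2 (0.172, at a log2 value of 0.29) also ended it, by edgeR in each case.

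Ccl7, whose gene lies next to Ccl2 on chromosome 11 (82045712 to 82047525), was the scarcest ligand per base of transcript after Ccl4 in set A, and the scarcest in set B. Its level was 8.83 CPM in the set A control and 9.58 CPM in the set A H2O2 library, and 12.9, 13.8 and 18.7 CPM in control replicates 2 and 3 and H2O2 replicate 2. Each H2O2 library was above the controls of its set, with a log2 value of 0.34 ± 0.13 that did not pass the test (adjusted p = 0.153 by edgeR) and was 0.11 without H2O2 replicate 2. The ratio of Ccl2 to Ccl7 CPM was 5.40 and 6.09 in set A and between 9.80 and 10.7 in set B.

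The MIP-1 genes Ccl3 and Ccl4 encode inflammatory chemokines that draw monocytes and T cells. Ccl3 (chromosome 11, 83647843 to 83649378) had 12.1 CPM in the set A control and 18.6 CPM in the set A H2O2 library, and 159.4, 133.5 and 183.0 CPM in control replicates 2 and 3 and H2O2 replicate 2. Ccl4 (chromosome 11, 83648624 to 83664683) stood at 3.55 and 4.91 CPM in control and H2O2 of set A, from 61 and 83 counts, and at 90.4, 90.5 and 102.5 CPM in the set B libraries in the same order. Both genes were highest in the H2O2 library of each set, and both were far lower in both set A libraries. The log2 values with H2O2 were 0.41 ± 0.11 for Ccl3 and 0.24 ± 0.090 for Ccl4, and neither passed (adjusted p = 0.0671 and 0.147 by edgeR). Without H2O2 replicate 2 the Ccl4 value was 0.47. Ccl3 passed in DESeq2 (adjusted p = 0.0375) and by edgeR without control replicate 2 (adjusted p = 0.0358). The annotated spans of the 2 genes share 755 bases and the strand setting of the counting is not given in the sources used here, so reads there may be shared, although all counts of both were whole numbers.

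Ccl5, or RANTES, a T cell attractant (chromosome 11, 83525778 to 83530518), had the reverse order of the sets. It reached 313.8 CPM in the set A control and 278.2 CPM in the set A H2O2 library, against 165.9, 124.5 and 144.9 CPM in control replicates 2 and 3 and H2O2 replicate 2. In set B the H2O2 library lay between the controls. The log2 value with H2O2 was -0.08 ± 0.12 (adjusted p = 0.730 by edgeR).

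Ccl6 and Ccl9, the rodent CCR1 ligands, were among the most abundant members and kept nearly the same proportion in every library. Ccl6 (chromosome 11, 83587886 to 83593087) had 1907 CPM in the set A control and 2078 CPM in the set A H2O2 library, and 5985, 5459 and 5926 CPM in control replicates 2 and 3 and H2O2 replicate 2. Ccl9 (chromosome 11, 83572917 to 83578636) stood at 1296 and 1562 CPM in set A and at 4137, 3860 and 3756 CPM in set B, in the same order. The set A libraries held the lowest values of both genes. Their ratio, Ccl6 over Ccl9, lay between 1.33 and 1.58 over the 5 libraries. With H2O2 the log2 values were 0.08 ± 0.076 for Ccl6 and 0.07 ± 0.099 for Ccl9, and neither passed (adjusted p = 0.528 and 0.712 by edgeR). Ccl9 had a log2 value of 0.27 ± 0.12 in set A and -0.09 ± 0.10 in set B, a difference between sets with adjusted p = 0.392 by edgeR.

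The neighbouring genes Ccl6 and Ccl9 are shown by the 160 bases before their RefSeq start sites (GRCm38.p6; minus strand; chr11:83593088-83593247 and chr11:83578637-83578796), because they kept their proportion across libraries. Capitals mark motif matches.
Ccl6: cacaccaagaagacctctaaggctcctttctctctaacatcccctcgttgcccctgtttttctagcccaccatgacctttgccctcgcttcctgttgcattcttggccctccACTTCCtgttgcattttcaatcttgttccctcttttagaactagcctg
Ccl9: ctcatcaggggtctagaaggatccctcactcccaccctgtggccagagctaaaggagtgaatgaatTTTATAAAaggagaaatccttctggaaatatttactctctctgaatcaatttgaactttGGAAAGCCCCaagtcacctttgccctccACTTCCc
Over 250 bases before the start, their best local alignment had 25 identical of 31 columns and their longest shared run was 13 bases. Other ligand pairs shared runs of up to 10 bases (Ccl22 with Ccl6, Ccl17 with Ccl3), and Ccl17 with Ccl9 had 14 identical of 16 columns. Whether this likeness has a part in the kept proportion was not tested. Both held the ETS core ACTTCC, which 19.7% of 32817 promoter windows of that length hold on either strand. Ccl9 alone of these 2 held an NF-kB match (3.9% of windows) and the TATA box letters TATAAA (12.4%).

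Ccl17 and Ccl22, the CCR4 ligands, lie close together on chromosome 8 (94809380 to 94812038 and 94745684 to 94751388) and differed in their pattern. Ccl17 had 259.3 CPM in the set A control and 257.8 CPM in the set A H2O2 library, and 1537, 1542 and 1436 CPM in control replicates 2 and 3 and H2O2 replicate 2. Ccl22, the ligand with the most reads in set A, had 7451 CPM in the set A control and 7078 CPM in the set A H2O2 library, and 6443, 6674 and 5268 CPM in set B in the same order. Ccl17 split by set with the H2O2 and control levels side by side, whereas Ccl22 stayed within a narrow range and was lowest in H2O2 replicate 2. The log2 values with H2O2 were -0.06 ± 0.067 for Ccl17 and -0.21 ± 0.084 for Ccl22, and neither passed (adjusted p = 0.595 and 0.159 by edgeR). The Ccl22 value was -0.076 without H2O2 replicate 2 and -0.32 without control replicate 1. The Ccl22 to Ccl17 ratio was 28.7 and 27.5 in control and H2O2 of set A, and 4.19, 4.33 and 3.67 in set B.

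The 160 bases before their start sites are shown because the levels of this pair parted between the sets (RefSeq, GRCm38.p6; plus strand; chr8:94810293-94810452 for Ccl17 and chr8:94745524-94745683 for Ccl22). The Ccl17 start of that table lies inside the gene span given above, so its window falls within the span. Capitals again mark motif matches.
Ccl17: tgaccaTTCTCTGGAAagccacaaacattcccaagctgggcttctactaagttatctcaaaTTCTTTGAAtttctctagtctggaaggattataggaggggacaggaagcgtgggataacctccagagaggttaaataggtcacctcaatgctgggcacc
Ccl22: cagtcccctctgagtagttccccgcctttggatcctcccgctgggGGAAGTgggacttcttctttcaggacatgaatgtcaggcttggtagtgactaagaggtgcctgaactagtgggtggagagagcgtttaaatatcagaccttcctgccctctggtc
Ccl17 held a match to each of the STAT patterns, which are TTC and GAA with either 4 or 3 bases between them, found in 5.85% and 7.01% of 32817 windows of 250 bases on either strand. Ccl22 held the ETS core on the opposite strand, as GGAAGT. The AP-1 letters TGACTCA or TGAGTCA (4.46% of windows) and the C/EBP letters TTGCNNAAC or TTGCNNAAT (4.02%) were in none of the 5 member windows with an entry, those of Ccl3, Ccl6, Ccl9, Ccl17 and Ccl22. A match describes letters in this window and is not a measured site.

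Ccl24, or eotaxin-2, an eosinophil attractant (chromosome 5, 135569935 to 135573123), had 308.6 CPM in the set A control and 294.0 CPM in the set A H2O2 library, and 304.9, 265.5 and 397.6 CPM in control replicates 2 and 3 and H2O2 replicate 2. H2O2 replicate 2 was the highest of all libraries, and the other 4 lay together. The log2 value over both sets was 0.25 ± 0.13 (adjusted p = 0.265 by edgeR). It was -0.07 ± 0.11 for set A alone and 0.48 ± 0.094 for set B alone. Without control replicate 1 or H2O2 replicate 1 the value rests on set B, where 1 H2O2 library is set against 2 controls and assumed to vary as they do. It then passed the threshold (adjusted p = 0.0111 and 0.0262 by edgeR).

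Whether a ligand's change with H2O2 differed between the sets was tested with an interaction term, which left 1 residual degree of freedom. By edgeR none of the 10 ligands was called, against 0.0164% of all genes. DESeq2 gave an adjusted p to 8 of the ligands, without Ccl4 and Ccl7, and called none of those 8, against 1.28% of the 3214 genes with one. At an unadjusted p of at most 0.05, edgeR gave 2 of 10 ligands and 13.7% of all genes. The 2 were Ccl24, which differed by -0.55 ± 0.15 (set A minus set B, log2; adjusted p = 0.180 by edgeR), and Ccl2, by -0.30 ± 0.11 (adjusted p = 0.294 by edgeR). In 5 ligands the log2 value was above 0 in both sets, in 3 below 0 in both, and in Ccl9 and Ccl24 the signs differed. The H2O2 library lay beyond every control of its set, the same way in both sets, in 6 of 10 ligands and in 56.5% of all genes. In 4 of these it was higher, against 28.5% of all genes, and in 2 lower, against 28%. In 0 of 10 ligands did every H2O2 library lie beyond every control library, against 23.7% of all genes. In 9 of the 10 every set A library lay beyond every set B library. Each set holds both treatments, so a ligand cannot show both separations. The separation of the sets is itself read from libraries that include the H2O2 ones, so it is not independent of the treatment.

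**Figure D2:**
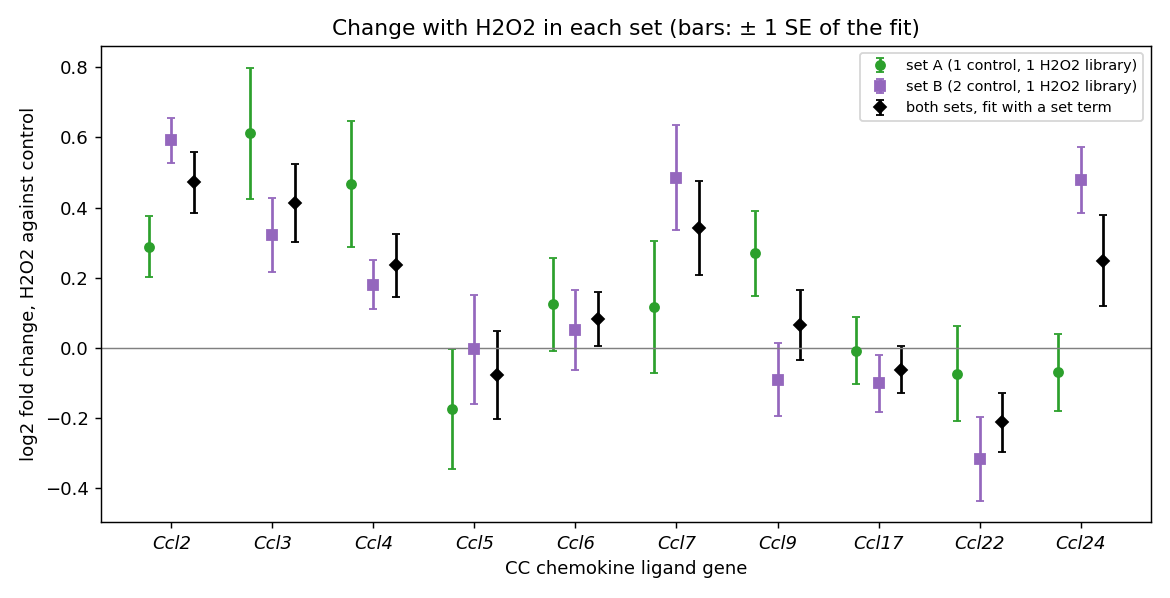
Log2 fold change of each ligand, H2O2 against control, in set A (green circles), in set B (purple squares) and over both with a term for the set (black diamonds); bars are 1 SE of the fit on either side. Ccl2 stands at 0.47 over both sets, and Ccl24 at -0.07 in set A and 0.48 in set B. Set A holds 1 library of each treatment, so its bars rest on the set B controls and on other genes.

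Between the sets, with treatment in the fit, 9 of 10 ligands were called, against 36% of all genes. The sets are not groups of the study, so these values describe how the libraries vary. Of the ligands 7 were lower in set A (16.9% of all genes) and 2 higher (19.1%). Ccl4 was 23.0-fold lower (log2 -4.52 ± 0.11; 4.23 ± 0.96 CPM, SD, n = 2, against 94.5 ± 6.95 CPM, n = 3). Ccl3 was 10.9-fold lower (log2 -3.45 ± 0.13) and Ccl17 5.78-fold lower (log2 -2.53 ± 0.074). A larger absolute difference between the sets was found in 0.106% of all genes for Ccl4, 0.442% for Ccl3 and 1.15% for Ccl17.

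Ccl2, Ccl6 and Ccl9 were lower in set A by similar amounts, with log2 values of -1.61 ± 0.092, -1.55 ± 0.080 and -1.47 ± 0.10, and Ccl7 by less, at -0.76 ± 0.14. Ccl5 was 2.05-fold higher in set A (log2 1.04 ± 0.12; 296.0 ± 25.1 against 145.1 ± 20.7 CPM). Ccl22 was 1.22-fold higher (log2 0.29 ± 0.083, adjusted p = 0.0342 by edgeR), a call that ended without control replicate 2, control replicate 3, H2O2 replicate 1 or H2O2 replicate 2 (adjusted p = 0.0622, 0.0785, 0.236 and 0.330). Ccl24 stood at -0.12 ± 0.13 (adjusted p = 0.510 by edgeR) and was called lower in set A without control replicate 1 (log2 -0.44, adjusted p = 0.0165). In 9 of 10 ligands every set A library lay beyond every set B library, a separation found in 51.9% of all genes. Set A lay higher in 2 of them, against 25.8% of all genes, and lower in 7, against 26.1%. The median absolute log2 difference between sets was 1.51 over the 10 ligands and 0.27 over all genes, and the median absolute log2 change with H2O2 was 0.22 and 0.17.

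**Figure D3:**
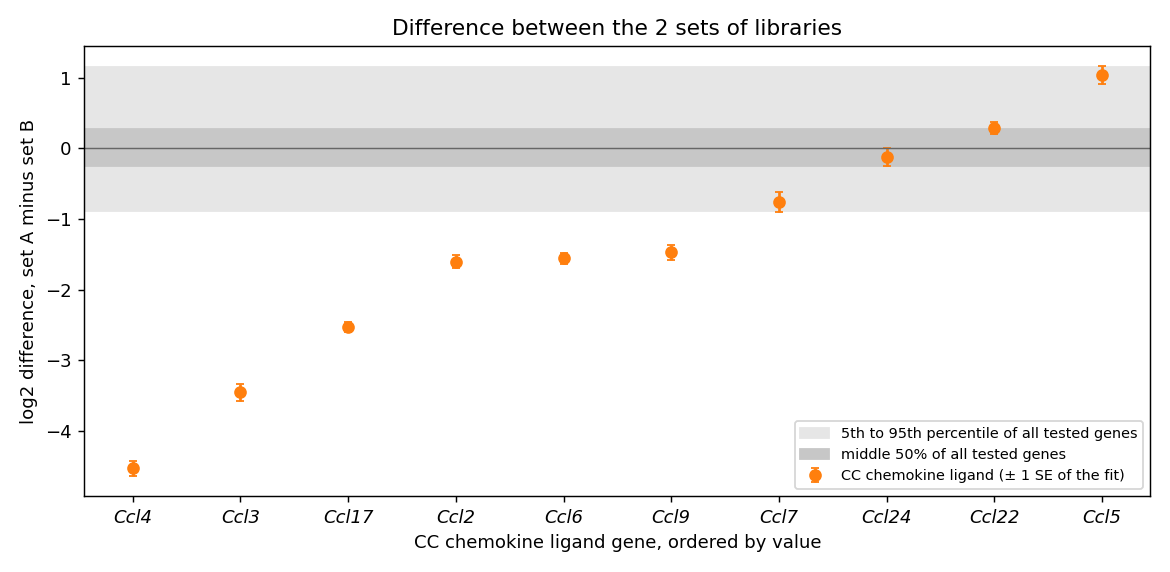
Log2 difference between the sets, set A minus set B, for the 10 ligands in order of value with 1 SE of the fit on either side; grey bands give the middle 50% and the 5th to 95th percentile of all tested genes. Ccl4, Ccl3, Ccl17, Ccl2, Ccl6 and Ccl9 lie below the 5th percentile of -0.88.

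Per kilobase of transcript, the order of the ligands differed between the sets. In set A, Ccl22 led (3278 ± 119 CPM per kilobase, SD, n = 2), followed by Ccl6 (1384 ± 84.0). Ccl5 (556.4 ± 47.3) came next, with both libraries above those of Ccl17 (503.0 ± 2.06) and Ccl9 (475.3 ± 62.6), whose values overlapped each other. Ccl24 (232.7 ± 7.94), Ccl2 (65.2 ± 9.20) and Ccl3 (20.0 ± 5.92) followed, with Ccl7 (11.5 ± 0.66) and Ccl4 (6.40 ± 1.46) at the end. In set B, Ccl6 led (4021 ± 199.9, n = 3), and the library values of Ccl17 (2928 ± 117) and Ccl22 (2766 ± 340) overlapped. Ccl9 followed at 1303 ± 65.5, and then Ccl5 (272.8 ± 38.9), Ccl24 (249.2 ± 52.4), Ccl3 (207.1 ± 32.3) and Ccl2 (190.6 ± 47.8), with library values that overlapped between neighbours in this order. Ccl4 (143.1 ± 10.5) and Ccl7 (18.9 ± 3.88) were lowest. These spreads hold libraries of both treatments.

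Together the 10 ligands took 1.21% and 1.18% of all counts in control and H2O2 of set A, and 1.88%, 1.85% and 1.64% in control replicates 2 and 3 and H2O2 replicate 2. Of their summed CPM, Ccl22 made up 64.2% and 60.8% in set A and between 30.2% and 36.5% in set B, while Ccl17 made up 2.23% and 2.21% in set A and between 8.1% and 8.43% in set B.

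**Figure D4:**
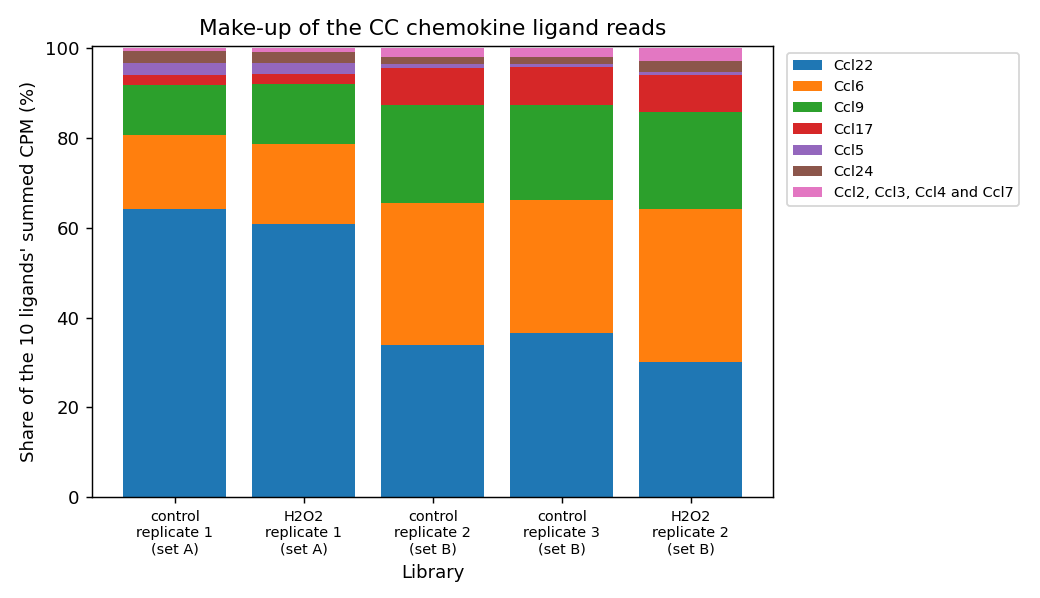
Share of the summed CPM of the 10 ligands taken by each, in percent, by library; shares follow read numbers and so favour long transcripts. Ccl22 is the largest part of both set A bars, at 64.2% and 60.8%, and Ccl6 and Ccl9 take more of the set B bars.

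The genes most like the leading ligand of each receptor group were ranked by distance between centred log2 CPM values over the 5 libraries, among 8691 other genes of at least 10 CPM. Nearest to Ccl6 were Pik3cd, Snx24 and, in rank 3, Ccl9, at distances of 0.14, 0.16 and 0.18. Nearest to Ccl2 were Olfr1033, Nabp1 and Lonrf3 (0.14, 0.15 and 0.23), and its nearest fellow ligand was Ccl6 in rank 20. Nearest to Ccl22 were Arrdc2, Utp3 and Stap2 (0.062, 0.063 and 0.079), and to Ccl24 Mysm1, Nsun3 and Mdfic (0.048, 0.093 and 0.096). The nearest ligands to those 2, Ccl24 and Ccl7, came in ranks 6514 and 6332.

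The rest of the CC family was scarce. Of 14 further CC chemokine genes listed, 9 had a row, and 2 passed the filter, Ccl25 (between 2.03 and 3.24 CPM) and Ccl27b (between 0.32 and 0.79 CPM, with counts that were not whole). Ccl1, Ccl8, Ccl12, Ccl19, Ccl20, Ccl27a and Ccl28 had at most 7 counts in any library, and Ccl19 had 0 in all.

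Of 14 CC receptor and decoy receptor genes, 7 passed the filter. With H2O2 only 1 of the 7 was called, against 8.54% of all genes. This was Ccr1, higher by 0.36 ± 0.065 on the log2 scale (adjusted p = 0.0261 by edgeR). The median over the 7 was -0.22, against 0.01 over all genes. Ccr1, the receptor for Ccl3, Ccl5, Ccl6 and Ccl9, had 308.2 CPM in the set A control and 384.5 CPM in the set A H2O2 library, and 325.6, 332.5 and 433.1 CPM in control replicates 2 and 3 and H2O2 replicate 2. Its H2O2 libraries lay above all controls. The call ended with no set term (adjusted p = 0.704), with the replicate block (0.0770), with no filter on low counts (0.0560) and without control replicate 2, control replicate 3 or H2O2 replicate 2 (0.0739, 0.110 and 0.154), by edgeR in each case. Ccr2, the receptor for Ccl2 and Ccl7, stood at 441.5 and 214.0 CPM in control and H2O2 of set A and at 479.8, 516.4 and 455.1 CPM in set B (log2 -0.51 ± 0.19, adjusted p = 0.135 by edgeR). Ccr3, the receptor for Ccl24, had at most 7 counts. Ccr4, the receptor for Ccl17 and Ccl22, stood between 3.44 and 11.0 CPM. Ccr7, the most abundant receptor on average over the 5 libraries but below Ccr2 in set B, stood at 1466 and 1275 CPM in set A and between 356.5 and 445.0 CPM in set B. Between the sets 4 of the 7 were higher and 1 lower in set A, against 19.1% and 16.9% of all genes.

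With H2O2, 2 of 14 NF-kB genes and 2 of 17 genes of interleukin-4 and GM-CSF signalling were called, against 8.54% of all genes. Among the NF-kB genes Ikbkg, the regulatory subunit of the IkB kinase, rose by 0.49 ± 0.070 and Relb, which encodes an NF-kB subunit, fell by 0.38 ± 0.079 on the log2 scale (adjusted p = 0.0187 and 0.0354 by edgeR). The median was -0.09. Rel, the most abundant on average over the 5 libraries although Nfkb1 was higher in the 3 of set B, stood at -0.13 ± 0.065. Among the signalling genes Csf2rb and Csf2rb2, the near-identical beta chains of the GM-CSF and interleukin-3 receptors that may share reads, rose by 0.35 ± 0.080 and 0.34 ± 0.078 on the log2 scale (adjusted p = 0.0452 and 0.0451 by edgeR). None of the 17 was called lower, the median was -0.04, and Stat6 stood at 0.14 ± 0.064. These 4 calls ended with no set term, with no filter on low counts, without control replicate 3 and without H2O2 replicate 2. Relb was also not called with the replicate block (adjusted p = 0.0661), without control replicate 2 (0.0868) or without H2O2 replicate 1 (0.0685 by edgeR). Csf2rb and Csf2rb2 were also not called with the block, with DESeq2's size factors (adjusted p = 0.0554 and 0.0536), with library totals alone, or without either library of set A, and Csf2rb2 without control replicate 2. Between the sets, 9 NF-kB genes were higher and 2 lower in set A, against 19.1% and 16.9% of all genes, with a median log2 difference of 0.38. Of the signalling genes 4 were higher and 6 lower, among them Irf4 (-0.59) and Socs1 (-1.17).

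Sums and calls of marker lists of cell types are given here next to the ligand values. Since these are bulk samples, fewer cells of a type and less RNA per cell cannot be told apart. For the counts below, 3.93% of all genes were called higher and 4.61% lower with H2O2, and 19.1% higher and 16.9% lower in set A. Markers of matured dendritic cells summed to 3004 and 2386 CPM in control and H2O2 of set A and to between 1173 and 1460 CPM in set B, with 7 of 9 tested higher in set A and 2 lower; with H2O2, 4 fell and none rose. Neutrophil markers summed to 554.6 and 963.8 CPM in set A and to between 1144 and 1818 CPM in set B, most of it Mmp8. In set A 7 of 9 were lower. With H2O2, 1 rose (Mmp8) and 2 fell (Mpo and Cxcr2). Mast cell and basophil markers summed to between 32.5 and 67.8 CPM in controls and to 8.87 and 18.3 CPM with H2O2, and 5 of 7 fell, while 6 of 7 were lower in set A. Eosinophil markers summed to between 32.0 and 58.6 CPM in controls and to 24.4 and 32.2 CPM with H2O2, most of it Siglecf. With H2O2 3 of 4 fell and 1 rose, and in set A 1 was higher (Siglecf) and 3 lower.

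Macrophage and monocyte markers summed to between 29780 and 33080 CPM in controls and to 33090 and 39590 CPM with H2O2, most of it Chil3. With H2O2 1 of 10 rose (Cd68) and 3 fell (Fn1, C1qb and C1qc). In set A 4 were higher (Fn1, Csf1r, C1qb and C1qc) and 1 lower (Ly6c2). C1qb and C1qc were scarce in set B, between 0.71 and 1.22 CPM and between 0.52 and 0.85 CPM. Conventional dendritic cell markers summed to 2472 and 2304 CPM in set A and to between 3110 and 3383 CPM in set B, most of it Itgax. Of the 6 tested, 2 were higher in set A (Flt3 and Dpp4) and 2 lower (Itgax and Irf4). With H2O2 4 fell (Flt3, Zbtb46, Dpp4 and H2-Ab1). T and NK cell markers stood at no more than 8.10 CPM in sum and B cell markers at no more than 1.58 CPM. Stroma and endothelium markers summed to between 77.0 and 116.9 CPM, nearly all of it Pecam1. Socs2 and Cd80, on the matured list, were lower in set A, and Ccl19, also on it, had 0 counts throughout. None of these markers was called with H2O2 with no set term or without H2O2 replicate 2. With no filter on low counts, 1 fell on each of the matured, mast cell and basophil, and eosinophil lists, and none on the conventional, macrophage and monocyte, and neutrophil lists. On the matured list the number that fell was 2 with the replicate block or without control replicate 2 or 3, and on the conventional list 2 without control replicate 2 or 3. On the mast cell and basophil list it was 3 without control replicate 3, and on the eosinophil list 1 without control replicate 2, control replicate 3 or H2O2 replicate 1. On the macrophage and monocyte list it was 1 with the block, by DESeq2 and without either library of set A, and 0 without control replicate 3. On the neutrophil list it was 1 without control replicate 3. The part of these cell types in the ligand values was not tested.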

How the data were processed

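The values the authors deposited are estimated counts per gene without normalization, per the file headers; in a library between 8.38% and 9.03% of values were not whole, but all those of the 10 ligands were. HISAT, Bowtie2 and GRCm38.p6 are named in the submitters' processing notes; counter, annotation and strand setting were not given in the sources used here. Symbols came from a RefSeq table of GRCm38.p6 (17520 of 17567 rows matched). Counts were rounded, filtered (filterByExpr, minimum count 10, minimum total 15) and scaled by TMM; CPM use the scaled library size. EdgeR 4.0.16 (R 4.3.3) fitted set and treatment (2 residual degrees of freedom); DESeq2 1.42.0 and limma 3.58.1 were alternatives. SE is the absolute log2 value over the square root of F. Set A holds libraries of at least 100 Y-linked counts. Lengths are those of the longest GENCODE transcript with a curated RefSeq match.

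Members, lists and the choice of the set term were made with earlier results of these data known. All members were named whatever their values, and of each gene list the most abundant and the called genes of lowest p. Markers named beside the sums, and Stat6, Irf4, Socs1, Ccr2, Ccr3 and Ccr4, were picked after their values were seen. In fits to simulated data the share of false calls was above the nominal threshold, most of all for the difference of the H2O2 change between sets. Where leaving out a library left 1 in an arm, it was assumed to vary as the others do. One receptor gene is not reported here.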

Additional observations from a re-analysis of the deposited data

How the results depend on the processing

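Ligands called higher with H2O2 numbered 1, and 0 with no set term, with no filter on low counts and with the replicate block, and 2 by DESeq2. Leaving out each library in turn gave between 0 and 2. With no set term the log2 values changed sign for Ccl3 (-0.0136), Ccl4 (-0.20), Ccl5 (0.071), Ccl6 (-0.15) and Ccl9 (-0.22); the cause was not tested. With a library left out they changed sign for Ccl9 (-0.10 and -0.09; range up to 0.27), Ccl5 (between -0.19 and 0.018) and Ccl24 (between -0.072 and 0.48). The values of Ccl6 (between 0.042 and 0.12), Ccl17 (between -0.11 and -0.011), Ccl4 (between 0.17 and 0.47), Ccl7 (between 0.11 and 0.49) and Ccl22 (between -0.32 and -0.076) kept their sign. Ligands called higher in set A numbered 2, and between 1 and 2 with a library left out. Without control replicate 1 or H2O2 replicate 1 the Ccl24 value comes from set B alone. For the difference between sets, Ccl24 changed sign to 0.11 and 0.10 without H2O2 replicate 1 or 2, in a range down to -0.44. The other 8 ligands, without Ccl22 and Ccl24, kept direction and call in 80 of 80 combinations of ligand and setting. The replicate block (1 residual degree of freedom) called 220 genes higher and 334 lower, against 480 and 563. Deviations from the group mean correlated between same-numbered libraries (0.81 and 0.71 across genes for replicates 1 and 2), but the labels name no shared source and there are only 2 pairs. Both replicates 1 are in set A and both replicates 2 in set B, so pairing by number cannot be told apart from the sets. The 2 correlations are not independent, since the deviations of 2 H2O2 libraries from their mean are opposite. All genes called higher and lower numbered 60 and 42 with no filter, 0 and 0 with no set term, and 1 and 0 without H2O2 replicate 2; 910 were lower without TMM. The difference of the H2O2 change between sets called 5 genes higher and 43 lower without TMM, and 5 and 36 by DESeq2, against 0 and 2. Leaving out a control of set B leaves that fit no residual degree of freedom, so only its values were computed. Ccl4 in set A rests on 61 and 83 counts.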
